A study of Mus musculus with 6 samples.

Results

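The broadest stretches of H3K9ac in mouse lung endothelial cells were the 25 rows of the deposited peak table whose end lay 3000 bp or more beyond their start, out of 17901 rows in all. They were chosen by their width, as the authors' peak calls gave it, and by no level or difference. They made up 0.140% of the rows and 0.518% of the covered bases, 85286 bp in total. The mark was profiled by CUT&RUN, in which a nuclease tied to an antibody cuts out the DNA under the marked nucleosomes, in isolated lung endothelial cells. The WT group held 3 libraries from Cre-negative mice, and the CSE-KO group held 3 libraries from Cre-positive mice. CSE, or cystathionine gamma-lyase, is the product of Cth and releases cysteine from cystathionine. The labels name neither the promoter that drives Cre, nor the age of the mice, nor whether each library had its own animal. The p-values therefore measure only how these 6 libraries vary, which may in part be technical.

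Acetylation of lysine 9 of histone H3 marks active promoters and enhancers. It is written by acetyltransferases such as those of the GCN5 and PCAF family, removed by histone deacetylases and bound by bromodomain proteins. Around an active start the mark usually spreads into the transcribed side, and in many cell types the widest domains of active promoter marks lie over regulators and other highly transcribed genes.

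Each broad row carried the name of a different gene. Chromosomes 1 and 11 held 4 rows each, chromosomes 8, 13, 16 and 17 held 2 each, and 9 further chromosomes held 1 each. Coordinates follow GRCm38 as deposited. The broadest row, 6564 bp at chr13:6606160-6612724, lay in intron 8 of 21 of Pfkp, the platelet type of the glycolytic enzyme phosphofructokinase. The next, 4270 bp at chr3:70802973-70807243, lay in intron 1 of 3 of the noncoding RNA gene Gm6634. The other 23 rows were 3001 to 3821 bp wide, and the median of the 25 was 3193 bp, against 815 bp for the 17876 narrower rows.

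The width limit chose the rows, so widths are given as a description. Just inside it lay Rnf217 (3001 bp), Tmem184b (3005 bp) and Tgfb1 (3021 bp). Just outside lay Fam13b (2995 bp), Trib1 (2975 bp) and Apold1 (2966 bp). Their levels interleaved across the limit: Rnf217, Tmem184b and Tgfb1 had 90.5, 88.3 and 64.1 CPM per kb, and Fam13b, Trib1 and Apold1 had 65.3, 96.2 and 79.9 CPM per kb. CPM is the read count scaled with TMM factors to a common total over the rows kept for testing, and not to all reads of a library. CPM per kb divides it by the row's width, so that rows can be compared.

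Most broad rows lay over or just past a transcription start. By the deposited distance to the nearest start, 16 of 25 (64%) covered that start, against 32% of the narrower rows. A wider row covers more positions, so part of this contrast follows from width. Another 4 began within 1 kb downstream of it: the upstream edge lay 48 bp past the start at Gm6634, 169 bp at Tmem184b, 300 bp at Tgfb1 and 803 bp at Piezo1. The remaining 5 lay inside genes, with the upstream edge 4175 bp past the start at Kdm6b, 18754 bp at 4930444P10Rik, 36047 bp at Pfkp, 75943 bp at Nos1ap and 99158 bp at Prim2. No broad row was intergenic, where 22.1% of narrower rows lay, and none was annotated as a repeat element, where 11.8% of narrower rows lay. By class, 14 were annotated as intron (9 of them intron 1), 3 as 5′ UTR, 3 as exon, 3 as promoter and 2 as transcript end. An annotation is given at the row's centre, so it does not describe the whole of a row this wide: 13 of the 16 rows over a start carried a class other than promoter.

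**Figure D1:**
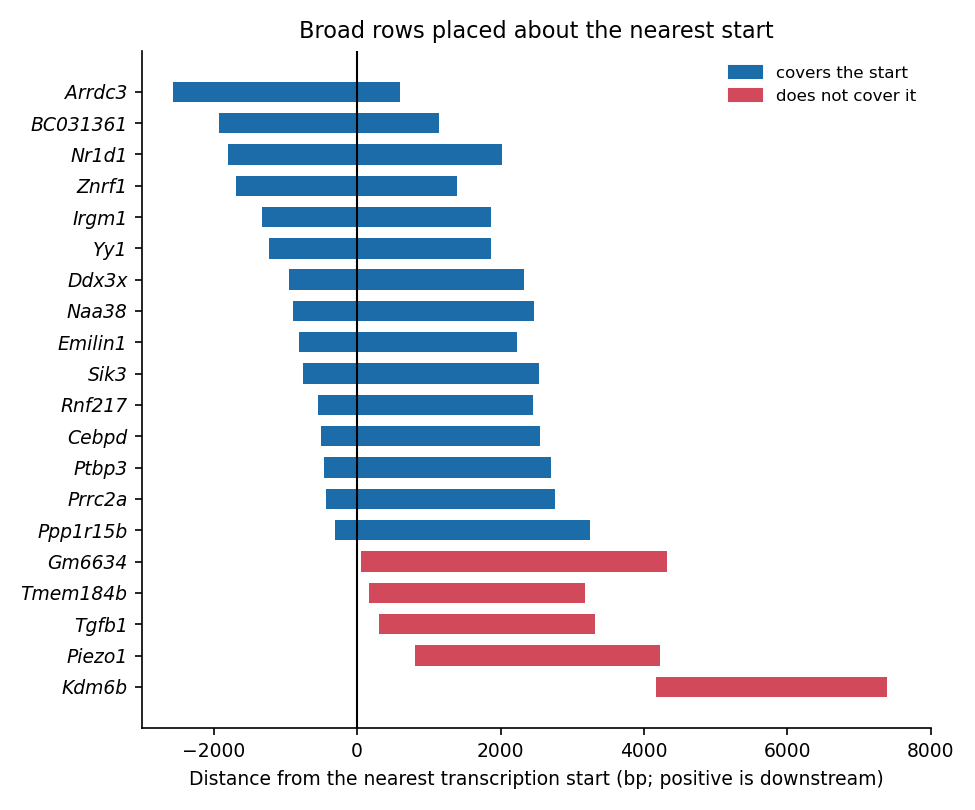
Extent of the broad rows relative to the nearest transcription start, in bp, for 20 rows whose edge lay within 10 kb of it. Blue bars cover the start (15 rows) and red bars do not (5 rows), and the 4 rows lying farther into their genes are not drawn. Most blue bars reach farther downstream than upstream, while the bars of Arrdc3, BC031361 and Znrf1 reach farther upstream of the start used. Those upstream parts lie inside a RefSeq gene span, which is that of Gsk3b at BC031361.

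Most rows over a start extended farther to the transcribed side, as narrower rows did. In 13 of the 16 rows more of the row lay downstream than upstream, beside 79.1% of the 5729 narrower rows that cover a start. The median share of the row downstream was 73.4%, close to the 68.1% among those narrower rows. The downstream part had a median of 2352 bp in the broad rows and 777 bp in the narrower ones, and the upstream part 850 bp and 367 bp. Ppp1r15b was the most one-sided row, with 308 bp upstream and 3244 bp downstream. By the start used, the exceptions were the rows of Arrdc3 (2572 bp upstream, 596 bp downstream), BC031361 (1922 and 1140 bp) and Znrf1 (1694 and 1398 bp). The Arrdc3 and Znrf1 rows lay wholly within the RefSeq span of their gene, so their upstream parts were inside the gene too. In the BC031361 row the oppositely oriented gene Gsk3b starts 881 bp from the row's first base. The part upstream of the BC031361 start therefore lay inside Gsk3b.

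Several rows spanned more than 1 gene. RefSeq promoter entries on GRCm38.p6 placed 15 starts inside 12 of the 25 rows. In 3 rows they gave a pair of starts on opposite strands: Nr1d1 with the noncoding Gm31862, Sik3 with Pafah1b2, and BC031361 with Gsk3b, the gene of a kinase of the Wnt pathway. The entries used lacked some genes whose row covers the nearest start, such as Ppp1r15b, Ptbp3, Cebpd and Naa38. These counts, and the shares of starts below, therefore leave such rows out. The row named Naa38, after a subunit of an N-terminal acetyltransferase, covered 100% of both Naa38 and Tmem88, a membrane protein that restrains Wnt signalling, and 17.2% of Cyb5d1. The row of Cebpd covered 100% of that gene. At such rows the deposited gene name is that of the nearest start, and the reads cannot be divided between the genes.

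Promoter sequence is shown for 4 rows that differ in base composition and level: Irgm1 and Arrdc3 had the highest levels per kb, and Yy1 and Emilin1 differed widely in CpG content. Each line gives the 250 bases before the RefSeq start used, on GRCm38.p6, 5′ to 3′ on the gene's strand. At Arrdc3, Yy1 and Emilin1 the RefSeq gene span begins farther upstream, so these bases lie inside it. Which start these cells use was not tested. Capitals mark matches on either strand to the motifs searched: the GC box GGGCGG, the CCAAT box CCAAT, the E-box CACGTG, the cAMP response element TGACGTCA, the ETS motif CCGGAAG, the ROR half-site AGGTCA and an interferon response motif, GAAA and GAAA with any 2 bases between them.
Irgm1, chr11:48871421-48871670, minus strand: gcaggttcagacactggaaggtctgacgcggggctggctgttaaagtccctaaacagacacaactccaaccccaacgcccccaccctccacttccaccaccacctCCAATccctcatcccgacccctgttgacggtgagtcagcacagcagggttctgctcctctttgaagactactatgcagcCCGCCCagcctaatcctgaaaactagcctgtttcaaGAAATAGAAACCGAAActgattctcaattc
Arrdc3, chr13:80885845-80886094, plus strand: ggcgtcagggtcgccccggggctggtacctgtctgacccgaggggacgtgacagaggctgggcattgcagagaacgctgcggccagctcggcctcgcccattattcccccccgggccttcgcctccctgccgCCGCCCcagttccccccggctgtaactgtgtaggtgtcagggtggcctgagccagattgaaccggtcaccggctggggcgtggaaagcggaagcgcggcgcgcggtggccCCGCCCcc
Yy1, chr12:108793047-108793296, plus strand: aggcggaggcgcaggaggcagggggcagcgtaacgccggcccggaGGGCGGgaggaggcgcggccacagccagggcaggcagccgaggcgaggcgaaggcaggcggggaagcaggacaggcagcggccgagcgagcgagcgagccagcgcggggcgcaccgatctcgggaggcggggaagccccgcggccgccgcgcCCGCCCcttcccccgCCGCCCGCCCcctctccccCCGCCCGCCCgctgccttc
Emilin1, chr5:30913536-30913785, plus strand: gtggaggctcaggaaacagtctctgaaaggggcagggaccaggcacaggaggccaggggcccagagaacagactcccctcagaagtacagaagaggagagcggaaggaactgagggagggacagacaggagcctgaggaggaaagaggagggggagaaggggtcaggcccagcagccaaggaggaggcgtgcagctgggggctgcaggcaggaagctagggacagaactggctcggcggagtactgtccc

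The Irgm1 sequence holds 2 overlapping matches to the interferon motif, beginning 30 and 24 bases before the start, in 1 run of capitals. It was the only 1 of the 15 starts listed in broad rows with this motif (6.67%), which 2.97% of all 32817 RefSeq starts hold. Yy1 holds 6 matches to the GC box, some overlapping, and Arrdc3 holds 2, while Emilin1 holds none of the motifs. The GC box occurred at 46.7% of starts in broad rows, 62.1% of 6744 starts in narrower rows and 32.7% of all starts. CpG dinucleotides numbered 36 per 250 bases at Yy1, 24 at Arrdc3, 7 at Irgm1 and 4 at Emilin1. The median observed-to-expected CpG ratio was 0.72 at starts in broad rows, 0.79 at starts in narrower rows and 0.28 at the 26058 starts outside the rows. The median GC content was 62.0% at starts in broad rows and 61.6% at starts in narrower rows. A match to these letters is a description of the sequence and no measure of binding.

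Broad rows held much signal in sum and moderately more per base. Their median level was 265 CPM, against 42.4 CPM for narrower rows, a difference that width itself produces in part. Per length the medians were 73.8 and 53.0 CPM per kb, and 9 of 25 broad rows (36%) were among the highest 10% of all rows per kb. Among narrower rows the wider bins had higher levels too, from a median of 45.0 CPM per kb under 500 bp to 70.6 CPM per kb between 2000 and 3000 bp. Among the 25, width and CPM per kb had a Spearman rho of -0.038, given as a description over rows that share their libraries. The table holds no row with a sum of RPKM below 167, so broad rows of low level are not analysed here.

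**Figure D2:**
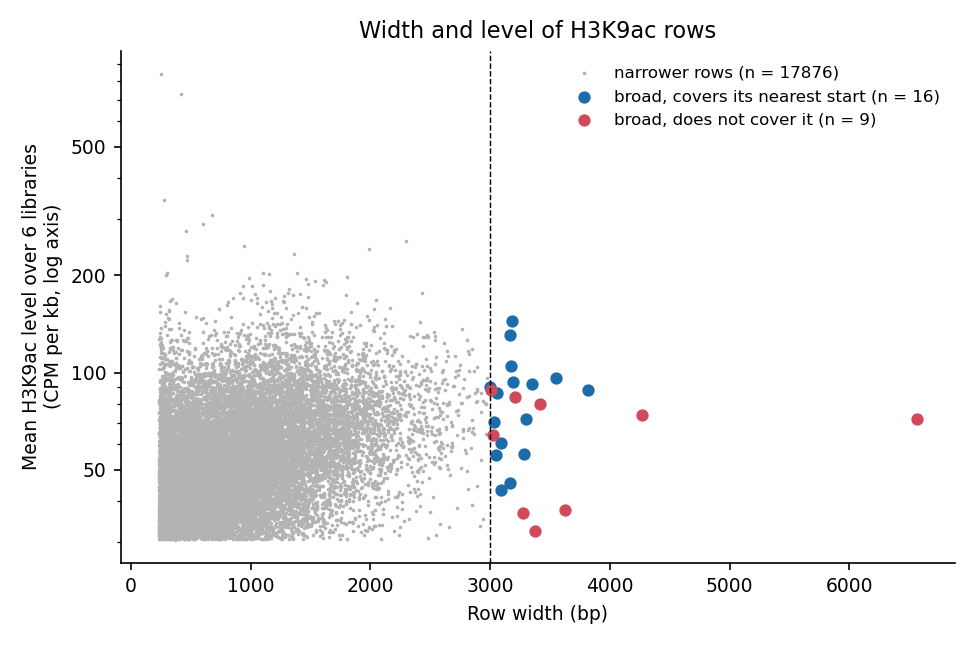
Width of each row in bp against its mean level over the 6 libraries in CPM per kb, on a log axis. Grey points are the 17876 narrower rows, blue points the 16 broad rows over a start and red points the 9 broad rows that do not cover one. The Pfkp row stands alone at 6564 bp, and 3 red points lie near the lower edge of the table.

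The level per kb spread 4.48-fold over the broad rows. At the top stood Irgm1, an interferon-induced GTPase of cell-autonomous defence (144.6 CPM per kb, rank 98 of 17901 rows), and Arrdc3, an arrestin-domain protein of receptor trafficking (130.5). Ppp1r15b, which directs a phosphatase to the translation factor eIF2 alpha, had 96.5 CPM per kb. At the bottom stood 3 of the rows lying far inside genes: 4930444P10Rik (37.6), Prim2, a subunit of DNA primase (36.7), and Nos1ap, an adaptor of neuronal nitric oxide synthase (32.3). Rows over a start had a median of 87.4 CPM per kb and the other 9 rows 72.0.

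All 25 rows passed the filter on low counts and were tested for a difference between CSE-KO and WT with edgeR. None was called at an adjusted p below 0.05, where 0.0868% of the 16134 tested rows were called, and none had an unadjusted p below 0.05, where 7.08% of tested rows did. DESeq2's Wald test and limma's voom called none either. The lowest adjusted p of a broad row was 0.723 in edgeR, 0.939 in DESeq2 and 0.628 in voom. The log2 fold change fitted by edgeR was below 0 at 14 rows and above 0 at 11, and the background is 50.1% below 0. It ranged from -0.29 to 0.37 with a median of -0.045, beside -0.00029 for the narrower rows. Without WT replicate 2 the median was 0.016 and without WT replicate 3 it was 0.033, so its sign rests on single libraries. Of the 25 rows, 16 lay below 0 in the authors' deposited table, with adjusted p from 0.725 to 0.998.

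The share of all counts that fell in broad rows was 0.623%, 0.627% and 0.642% in the WT libraries, in the order of their replicate numbers, and 0.640%, 0.632% and 0.631% in the CSE-KO libraries. The groups overlapped. Scaling between libraries removes any change that all rows share, and a different mix of cells and a different level of the mark per cell cannot be told apart in such bulk libraries. A number within the authors' names for the normalized and RPKM columns differs between WT and CSE-KO. No source used here explains it, and if it marks a batch, batch and group cannot be told apart.

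**Figure D3:**
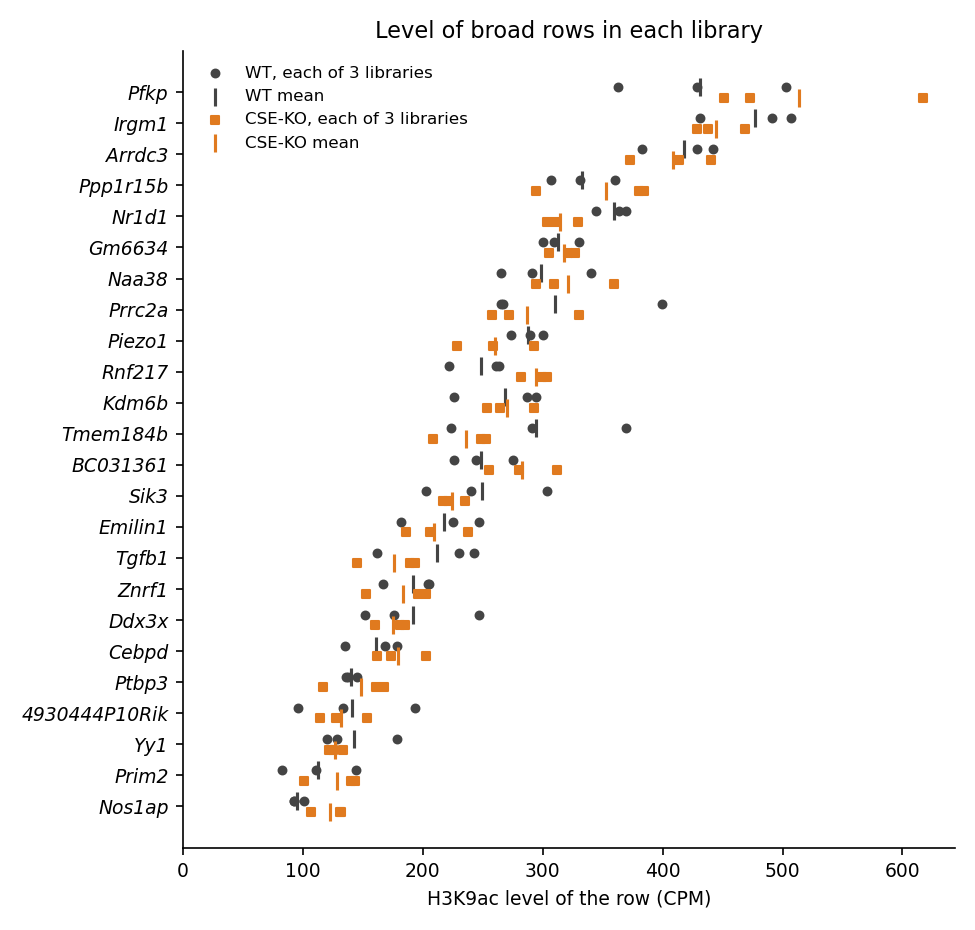
Level of 24 broad rows in CPM in each of the 3 WT (dark circles) and 3 CSE-KO (orange squares) libraries, with vertical ticks at the group means and rows ordered by mean level. The circles and squares overlap in range in 21 of 24 rows and separate at Nr1d1, Nos1ap and Rnf217.

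The libraries of the groups did not overlap at 3 of the 25 rows (12%), near the 13.0% of all tested rows. CSE-KO was lower at 1 of them (background 6.90%) and higher at 2 (background 6.09%). Nr1d1 encodes the nuclear receptor REV-ERB alpha, a repressor of the circadian clock. Its row (chr11:98773360-98777181) had 363, 369 and 344 CPM in the WT libraries and 329, 310 and 303 CPM in the CSE-KO libraries, again by replicate number. The groups did not touch, with CSE-KO below WT at a log2 fold change of -0.19 (SE 0.13, 95% interval -0.44 to 0.070, edgeR adjusted p = 0.799), which did not pass.

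Rnf217, a RING-type ubiquitin ligase gene, had the opposite order. Its row (chr10:31607271-31610272) had 263, 261 and 222 CPM in WT and 299, 282 and 303 CPM in CSE-KO. The log2 fold change was 0.25 (SE 0.14, edgeR adjusted p = 0.741). Nos1ap (chr1:170477791-170481167) had 92.3, 92.4 and 100.8 CPM in WT and 130.5, 131.3 and 106.5 CPM in CSE-KO. Here CSE-KO replicate 3 lay next to the WT range, and the log2 fold change of 0.37 (SE 0.20, 95% interval -0.030 to 0.77, edgeR adjusted p = 0.740) was the largest of the broad rows.

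Smallest in unadjusted edgeR p were Tmem184b, Pfkp, Nos1ap, Rnf217 and Tgfb1, from 0.0583 to 0.0781. Below an unadjusted p of 0.10 lay 5 of the broad rows (20%), beside 13.0% of all tested rows. Tmem184b, a transmembrane protein gene, had 291, 369 and 223 CPM in WT and 208, 252 and 248 CPM in CSE-KO (chr15:79399746-79402751). The highest values were WT replicates 1 and 2, while WT replicate 3 lay among the CSE-KO libraries (log2 fold change -0.29, SE 0.15, edgeR adjusted p = 0.723). Leaving out WT replicate 2 gave -0.14 at Tmem184b, and leaving out WT replicate 3 gave -0.47. The broadest row, Pfkp, had 503, 363 and 428 CPM in WT and 617, 473 and 451 CPM in CSE-KO. CSE-KO replicate 1 held the highest value and the groups overlapped (log2 fold change 0.24, SE 0.13, edgeR adjusted p = 0.732). The Pfkp value was 0.083 without CSE-KO replicate 1, 0.15 without WT replicate 2 and 0.37 without WT replicate 1.

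The broad rows of Tgfb1, Emilin1 and Piezo1 are described next, and no shared theme of these genes was tested. Tgfb1, the gene of the cytokine TGF-beta 1, carried a row in intron 1 of 6 (chr7:25687302-25690323) with 242, 162 and 230 CPM in WT and 194, 145 and 189 CPM in CSE-KO. The lowest WT library lay inside the CSE-KO range (log2 fold change -0.29, SE 0.16, edgeR adjusted p = 0.745). It was -0.18 without CSE-KO replicate 2, -0.19 without WT replicate 1 and -0.42 without WT replicate 2. Emilin1, a glycoprotein of elastic fibres that binds the TGF-beta precursor, had 218 ± 33.3 CPM in WT and 210 ± 26.0 CPM in CSE-KO (SD, n = 3 each), and its row lay in intron 1 of 7 at chr5:30912976-30916013. Piezo1, a mechanosensitive ion channel through which endothelial cells sense flow, had 289, 300 and 274 CPM in WT and 228, 293 and 259 CPM in CSE-KO, in intron 1 of 50 at chr8:122547108-122550526. Its CSE-KO replicate 2 lay among the WT libraries (log2 fold change -0.15, SE 0.14, edgeR adjusted p = 0.866). Leaving out CSE-KO replicate 1 gave -0.056, and leaving out CSE-KO replicate 2 gave -0.24. Piezo1 had 6 rows in the table, of which this was the broad 1.

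Transcription factor and chromatin genes were represented by 4 rows. Cebpd, a factor of the acute-phase response, had 168, 135 and 178 CPM in WT and 162, 173 and 203 CPM in CSE-KO (chr16:15886783-15889831; log2 fold change 0.12, SE 0.17). Yy1, a zinc finger factor that links promoters and enhancers, had 120, 129 and 178 CPM in WT and 122, 125 and 133 CPM in CSE-KO (chr12:108792073-108795167; -0.18, SE 0.18). WT replicate 3 alone stood above the rest at Yy1, and without it the log2 fold change was 0.033. Kdm6b, the gene of a demethylase of H3K27, had 226, 287 and 294 CPM in WT and 253, 293 and 265 CPM in CSE-KO (chr11:69408811-69412020; 0.014, SE 0.14). At these rows and at Nr1d1 no difference passed, and all but Nr1d1 overlapped between the groups.

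The 2 rows of highest level per kb overlapped between the groups, and neither passed. Irgm1, whose promoter carries the interferon motif shown above, had 431, 492 and 507 CPM in WT and 468, 428 and 438 CPM in CSE-KO (chr11:48869554-48872741; log2 fold change -0.093, SE 0.12). Arrdc3 had 442, 429 and 383 CPM in WT and 441, 413 and 373 CPM in CSE-KO (chr13:80883524-80886691; -0.026, SE 0.12). These rows also had the smallest standard errors of the 25. Ppp1r15b, of translation control, had 333 ± 26.8 CPM in WT and 353 ± 51.0 CPM in CSE-KO (SD, n = 3 each). Ddx3x, an X-linked RNA helicase, had 191 ± 49.5 and 175 ± 13.4 CPM, and Ptbp3, a splicing regulator, had 140 ± 4.83 and 148 ± 27.9 CPM. The log2 fold changes of these 3 rows lay between -0.17 and 0.11.

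The remaining rows overlapped between the groups as well. Sik3, a salt-inducible kinase that acts on class IIa deacetylases, had 249 ± 50.9 CPM in WT and 224 ± 9.71 CPM in CSE-KO, and WT replicate 2 held its highest value. Prrc2a, a gene for an RNA-binding protein, had 310 ± 76.9 and 286 ± 38.3 CPM, again with its highest value in WT replicate 2. Znrf1, a ubiquitin ligase gene, had 192 ± 22.1 and 184 ± 27.4 CPM, and the row shared by BC031361 and Gsk3b had 248 ± 25.2 and 282 ± 28.5 CPM. The Naa38 row stood at 298 ± 38.0 and 321 ± 34.2 CPM. Gm6634 had 313 ± 15.4 CPM in WT and 318 ± 11.3 CPM in CSE-KO, and lay 698242 bp from the next row. The rows far inside 4930444P10Rik (141 ± 49.2 and 132 ± 20.2 CPM) and Prim2 (112 ± 31.0 and 128 ± 23.8 CPM) varied most between WT libraries relative to their mean, and their lowest counts, 29 and 25, were in WT replicate 2, the shallowest library.

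**Figure D4:**
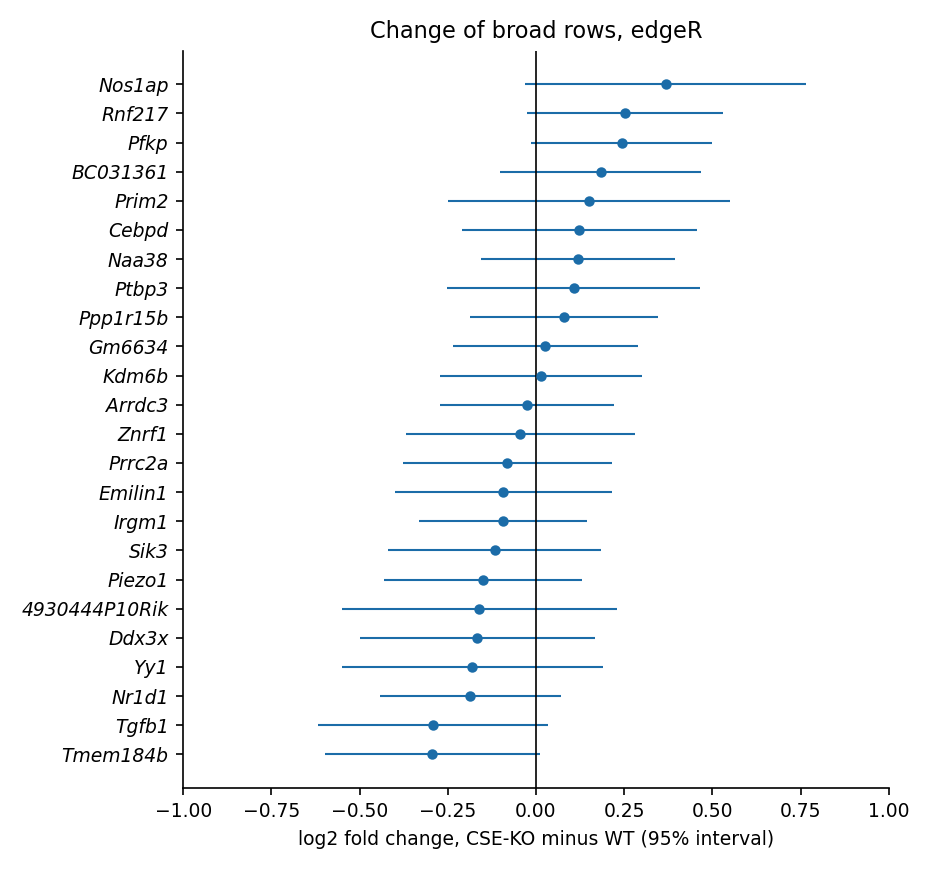
Log2 fold change of 24 broad rows, CSE-KO minus WT, from edgeR, with 95% intervals, ordered by value. All 24 intervals include 0 and lie within 1 of it, between -0.62 at Tgfb1 and 0.77 at Nos1ap.

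The broad rows were measured more precisely than most. Counts per row and library ran from 25 to 714, with a median mean count of 180 per library against 28.7 for narrower rows. The SE of the log2 fold change had a median of 0.15, against 0.30 for the narrower rows, and the size of the log2 fold change had medians of 0.12 and 0.22. Both were lower in wider bins across all rows: under 500 bp the median size was 0.35 with an SE of 0.47, and between 2000 and 3000 bp 0.14 with an SE of 0.17. All 25 intervals lay within 1 of 0 on the log2 scale, which is a 2-fold difference, and 18 of 25 lay within 0.5 of 0.

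**Figure D5:**
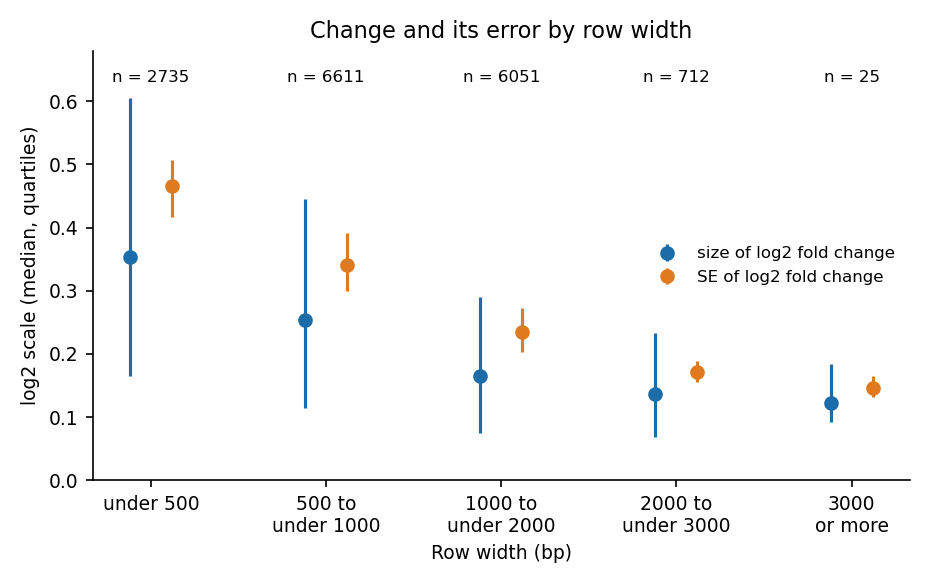
Size of the log2 fold change between CSE-KO and WT (blue) and its standard error (orange) by row width in bp, as medians with quartiles over tested rows. Both are lower in wider bins, and the size lies below the error in every bin.

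Gene lists for endothelial cells and for the pathways at hand held 0 or 1 gene with a broad row each, where 0.223% of the 11191 genes with any row had one, and nothing is read from such small counts. Of 33 endothelial transcription factor genes 29 had a row and 0 a broad one, and the widest was at Sox7 (2888 bp). Among 41 genes of endothelial surface and junction proteins 32 had a row and 0 a broad one, with the widest at Clec14a (2726 bp). Angiogenesis and Notch genes had 31 of 38 with a row and 0 with a broad one (widest Itgb1, 2560 bp), and cysteine, ATF4 and NRF2 genes 37 of 43 and 0 (widest Txnrd1, 2168 bp). AP-1, immediate early and inflammatory regulators had 40 of 45 with a row and 1 broad one, Cebpd, and chromatin and acetylation genes 31 of 38 and 1, Kdm6b. At 2000 bp or more, 6 of the 29 endothelial factor genes with a row had one so wide, 7 of 32 surface and junction genes, 4 of 31 angiogenesis and Notch genes, 7 of 40 AP-1 and inflammatory genes, 4 of 31 chromatin genes and 3 of 37 cysteine, ATF4 and NRF2 genes, beside 6.36% of all genes with a row. The median of each gene's widest row was 1175 bp for the endothelial factors, 1392 bp for the surface proteins and 1457 bp for the chromatin genes. It was 1299 bp for angiogenesis and Notch, 1352 bp for AP-1 and inflammatory and 1188 bp for cysteine, ATF4 and NRF2 genes, beside 1024 bp for all genes. A gene with more rows has more chances of a wide one, and the lists were not matched for rows per gene. The lists were also chosen with earlier results of these data known, and a difference from all genes was not tested.

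Total counts over the rows ran from 313610 to 676056 in WT and from 679938 to 1173016 in CSE-KO libraries, so each CSE-KO library was deeper than each WT library. Cth, the gene lost in CSE-KO mice, had no row in the table used here. Of 12 endothelial marker genes 12 had a row, with a summed level of 2162 to 2521 CPM in WT and 1987 to 2355 CPM in CSE-KO libraries. Rows were found for 5 of 13 epithelial markers (327 to 357 and 296 to 339 CPM), 1 of 12 leukocyte markers (16.7 to 39.6 and 21.6 to 23.9 CPM) and 1 of 12 mesenchymal markers (33.0 to 46.9 and 22.4 to 51.8 CPM), none of them broad. The part of other cell types in the broad rows was not tested.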

How the data were processed

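H3K9ac CUT&RUN libraries of 3 WT and 3 CSE-KO samples were analysed from 1 deposited table with a row per peak. Per the submitters' processing notes the tools include Trimmomatic 0.39, Picard 3.1.1, STAR 2.7.11a, DESeq2 1.36.0 and featureCounts, with no order or settings given. No source used here gives the peak caller, or says whether libraries were pooled for peak calling. The authors deposited raw counts per peak and library, and, per the file headers, normalized values, RPKM and their own fold change and p-values, written with decimal commas. The RPKM gave the library totals used in 1 alternative. The table held 17901 rows of identifiers up to 23867.

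The notes name mm39, while the starts implied by the rows lay within 100 bp of a RefSeq GRCm38.p6 start at 96.6% of 13660 rows with an entry (median gap 0.5 bp), so coordinates are given on GRCm38. Counts of all rows were tested with edgeR 4.0.16 in R 4.3.3 (a filterByExpr minimum of 10 counts, which kept 16134 rows, TMM factors, glmQLFit and glmQLFTest, two-sided, Benjamini-Hochberg adjustment over tested rows, threshold 0.05). SE came from the F statistic, and CPM used the TMM-scaled totals over the tested rows. The procedure was also run on simulated counts whose planted changes were larger than any fitted at a broad row. That run gives no rate of detection for changes of the size reported here. Alternatives were RLE factors, library size alone, testing without a filter, keeping rows of mean count 50 or more, DESeq2 1.42.0, voom of limma 3.58.1, a replicate block, each library left out, and width limits of 2500 and 4000 bp. Libraries of a group differed by more than sampling noise (chi-square divided by its degrees of freedom, 1.87 to 2.15). The rows and the gene lists were chosen with earlier results of these data known. Every broad row is named except 1, whose own values are not reported here and which is counted in the totals only, with the 3 rows nearest outside the limit and the widest row of each list.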

Additional observations from a re-analysis of the deposited data

How the results depend on the processing

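No broad row was called under any other setting or without any 1 library, and the lowest adjusted p of the 25 rows over the 13 refits of each was 0.506 (edgeR, Pfkp without WT replicate 1). At a width limit of 2500 bp, with 175 rows, the count was 0 too. Same-numbered libraries of the groups showed little shared deviation (r = 0.065, 0.014 and 0.0051). The labels state no pairing, and such values cannot show whether one existed. With the replicate block the count of called rows was 0 and the median log2 fold change -0.035. The median, -0.045 in the main analysis, lay between -0.084 (without WT replicate 1) and 0.033 (without WT replicate 3) with 1 library left out, and was 0.13 over the 2 rows of 4000 bp or more. The sign at Arrdc3 turned with a mean count of 50 or more (0.0063). With 1 library left out the sign turned at 11 rows. Their log2 fold changes ran from -0.094 to 0.033 at Arrdc3, -0.19 to 0.0079 at Emilin1, -0.11 to 0.096 at Kdm6b, -0.0049 to 0.057 at Gm6634, -0.25 to 0.016 at Sik3, -0.19 to 0.10 at Prrc2a, -0.32 to 0.033 at Yy1, -0.28 to 0.063 at Ddx3x, -0.32 to 0.13 at 4930444P10Rik, -0.15 to 0.067 at Znrf1 and -0.0012 to 0.25 at Ptbp3. The turn came without WT replicate 1 at Arrdc3, Emilin1, Kdm6b and Gm6634, without WT replicate 2 at Sik3 and Prrc2a, and without WT replicate 3 at Yy1, Ddx3x, 4930444P10Rik and Znrf1. It came without CSE-KO replicate 1 at Ptbp3, without CSE-KO replicate 2 at Znrf1 and Kdm6b, and without CSE-KO replicate 3 at Arrdc3. The cause was not tested. Among rows that kept their sign with 1 library left out, the value ran from -0.47 to -0.14 at Tmem184b, -0.42 to -0.18 at Tgfb1, -0.24 to -0.056 at Piezo1, -0.22 to -0.16 at Nr1d1, -0.17 to -0.044 at Irgm1, 0.0098 to 0.19 at Ppp1r15b, 0.035 to 0.20 at Naa38, 0.028 to 0.20 at Cebpd, 0.017 to 0.36 at Prim2, 0.11 to 0.27 at BC031361, 0.083 to 0.37 at Pfkp, 0.16 to 0.31 at Rnf217 and 0.32 to 0.45 at Nos1ap. The mean share of counts in broad rows was 0.631% in WT and 0.634% in CSE-KO, 0.590% and 0.587% with the totals implied by RPKM, 3.67% and 3.57% at the 2500 bp limit, and 0.0724% and 0.0820% at 4000 bp, where another set of rows is counted.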
